A study of Homo sapiens with 5 samples.

Results

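The expression of 54 DNA repair genes was described in TOV21G ovarian clear cell carcinoma cells and in clones of this line that had become resistant to the EZH2 inhibitor GSK126. The genes were the rows of the RNA-seq count table whose Ensembl identifiers map to 54 listed symbols, and all 54 were found among the 30476 rows. They cover homologous recombination, the MRN complex with resection and RecQ helicases, the Fanconi anemia pathway, damage signalling, mismatch repair, direct reversal, nucleotide and base excision repair, end joining and specialised polymerases. TOV21G is an established line with mutated ARID1A, a subunit of the SWI/SNF chromatin remodelling complex, and EZH2 is the catalytic subunit of PRC2, which methylates histone H3 at lysine 27. The EZH2 inhibitor-resistant (EIR) cells were raised by stepwise exposure to 5, 10, 15 and 20 uM GSK126, after which single clones were taken. The 5 libraries were 1 of untreated parental cells, 2 of untreated EIR cells (clone 3 and clone 4) and 2 of the same clones treated with GSK126, so all libraries share the ARID1A-mutated background of the line. The dose and time of GSK126 in the treated cultures were not given in the labels.

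Several limits follow from this design. There was 1 parental library, so the spread behind every comparison with parental cells came from the 4 EIR libraries, which stem from 2 clones, so that the untreated and the treated library of a clone share their origin. The labels do not say whether cultures were replicated, and a p-value then measures the spread between these libraries alone. What differed because of resistance, because a clone was picked, or because of the single parental preparation cannot be told apart. Likewise, a change in RNA per cell cannot be told apart from a change in the share of cells in cycle.

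Homologous recombination copies an undamaged sister chromatid to mend a double-strand break, and it starts when nucleases resect the broken ends. Non-homologous end joining seals the ends directly, and the Fanconi anemia pathway unhooks crosslinks between the strands. Mismatch, base excision and nucleotide excision repair remove damaged or mispaired bases from a single strand, and many genes of the replication-linked pathways are expressed most in dividing cells.

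Total counts per library were between 25479238 and 30764963. PAX8, KRT8 and KRT18, which mark Mullerian and simple epithelial cells, were at 3083 or more normalized counts in all 5 libraries, whereas the epithelial marker EPCAM was at 401 in parental cells, 394 and 492 in clone 3 and 0 and 1 in clone 4. The leukocyte gene PTPRC and the endothelial gene VWF were at 17 or fewer normalized counts throughout. Of 20 proliferation genes, 1 was called in EIR against parental cells (TOP2A, higher), beside 25.5% of all genes tested. After the GC correction described further on, 4 were called, 3 higher and 1 lower, beside 19.4% of all genes. MKI67, PCNA and CCNA2 differed from parental cells by log2 fold changes of 0.18, 0.02 and -0.04 (DESeq2 adjusted p = 0.8173, 0.9434 and 0.9058). MKI67 nevertheless stood at 19000 normalized counts in treated clone 4 against 8704 to 10977 in the other EIR libraries. In clone 4 against clone 3, DESeq2 called 5 of the 20, 3 higher and 2 lower, beside 9.81% of all genes.

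Repair genes differed from parental cells in both directions. All members but FANCF averaged 100 normalized counts or more, here called expressed, and those 53 were tested. Between EIR and parental cells 21 of 53 were called at a DESeq2 adjusted p under 0.05, 14 higher and 7 lower in EIR cells. Over all 16288 genes tested 25.5% were called, 12.4% higher and 13.2% lower, and among expressed genes the share was 30.5%. The median log2 fold change of the members was 0.02, beside 0.0025 for all genes tested. All 4 EIR libraries lay above the parental library for 23 members (43.4%) and below it for 18 (34.0%), whereas 31.9% and 40.6% of all expressed genes did so.

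Fewer members were called by the quasi-likelihood test of edgeR, with 7 higher and 4 lower at an adjusted p under 0.05, where 11.1% of all genes were called (4.39% higher and 6.73% lower). GC content moved with the result, as described after the sequences, and with a correction for it 7 members were called higher and 3 lower, where 19.4% of all genes (10.2% higher and 9.16% lower) and 23.8% of expressed genes were called. The 9 members called in all 3 analyses were BRCA2, NBN, EXO1, WRN, FANCM and LIG4, which were higher in EIR cells, and FANCE, XRCC5 and POLH, which were lower. How many of all genes were called in all 3 was not computed, so this count does not set repair genes apart.

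**Figure D1:**
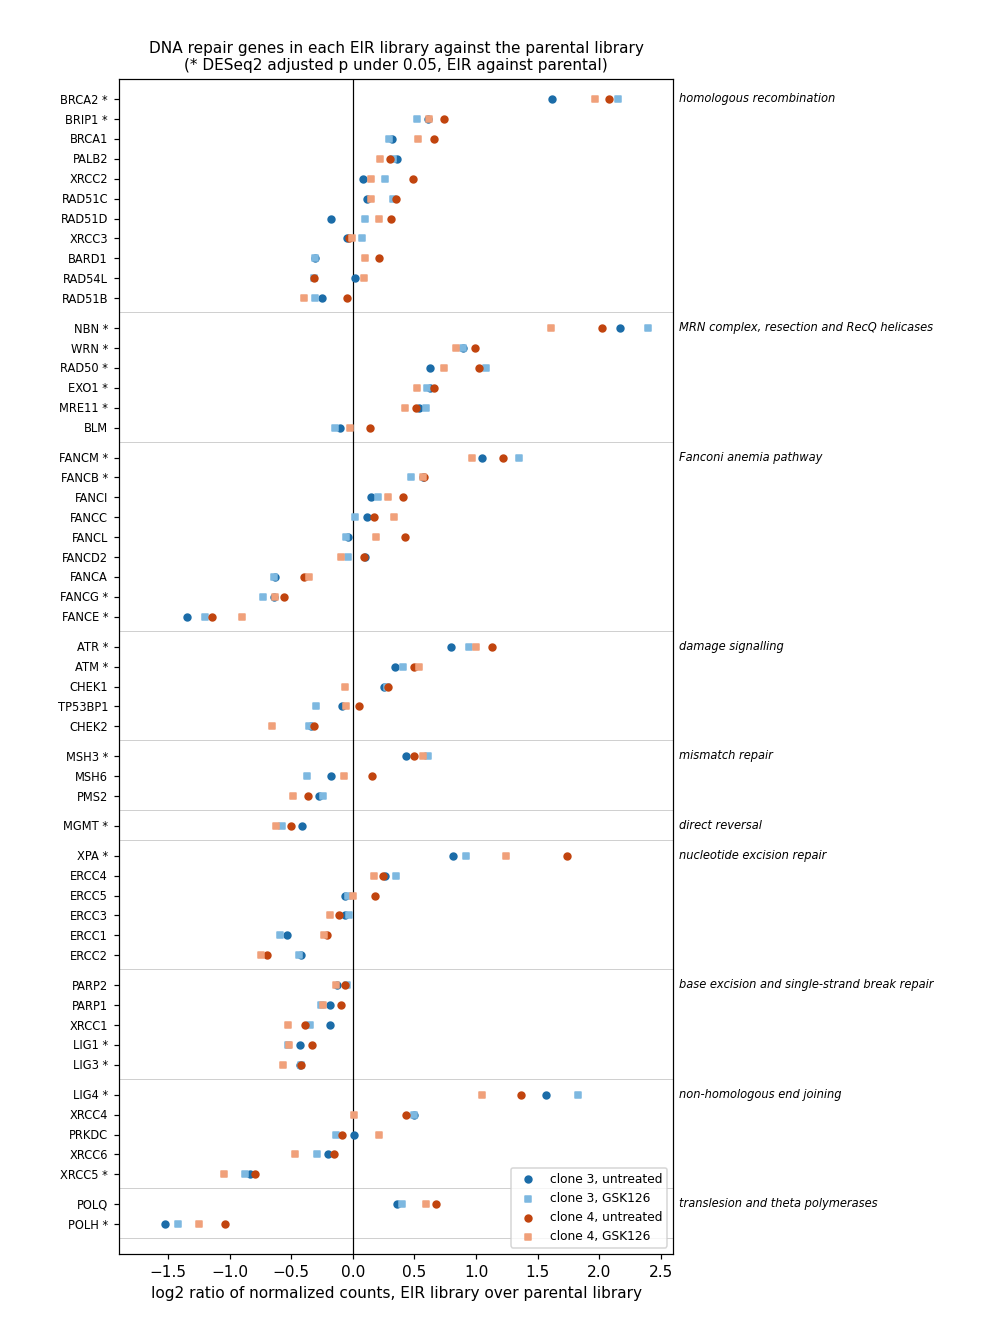
Log2 ratio of normalized counts in each EIR library to the parental library for the 53 expressed repair genes, ordered by class, with 1 point per library. BRCA2, NBN and LIG4 lie above a log2 ratio of 1 in all 4 libraries and POLH below -1 in all 4, while most other members lie between -1 and 1.

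Coding sequence from the called members with the largest rise and fall is shown because base composition moved with the result. BRCA2 and LIG4 stand for the members that rose, no sequence of NBN being shown, and POLH and FANCE for those that fell. Each line gives the 120 bases at the middle of the longest annotated coding sequence, 5′ to 3′ on the coding strand (GENCODE release 44 on GRCh37), with G and C in capitals. The BRCA2 window lies in exon 11 (chr13:32913560-32913679, plus strand) and the LIG4 window in exon 2 (chr13:108862189-108862308, minus strand). The POLH window joins exons 9 and 10 (chr6:43572994-43578347, plus strand) and the FANCE window exons 2 and 3 (chr6:35424020-35425341, plus strand).
BRCA2 coding window: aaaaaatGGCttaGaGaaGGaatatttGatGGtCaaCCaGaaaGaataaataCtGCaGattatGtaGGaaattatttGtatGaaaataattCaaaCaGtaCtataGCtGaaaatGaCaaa
LIG4 coding window: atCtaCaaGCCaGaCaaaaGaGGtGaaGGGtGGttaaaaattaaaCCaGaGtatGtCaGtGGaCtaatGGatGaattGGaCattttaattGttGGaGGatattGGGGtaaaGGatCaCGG
POLH coding window: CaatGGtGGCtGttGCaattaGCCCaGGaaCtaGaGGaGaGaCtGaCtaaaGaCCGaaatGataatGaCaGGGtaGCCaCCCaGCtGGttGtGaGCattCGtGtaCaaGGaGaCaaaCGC
FANCE coding window: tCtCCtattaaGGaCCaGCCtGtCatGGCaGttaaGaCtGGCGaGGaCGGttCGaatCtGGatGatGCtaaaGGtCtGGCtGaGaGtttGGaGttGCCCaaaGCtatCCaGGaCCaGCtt
The share of capitals was 27.5% in BRCA2, 39.2% in LIG4, 49.2% in POLH and 50.8% in FANCE. Over the whole coding sequences it was 35.7%, 37.8%, 47.9% and 60.2% in the same order.

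The median GC content of member transcripts was 44.4% (36.0% to 60.6%), beside 48.3% for all expressed genes. Of the 12 members under 40% GC, 9 were called higher in EIR cells and 0 lower, while 41.8% and 3.17% of all expressed genes under 40% were. Of the 13 members at 50% or more, 0 were called higher and 5 lower, with 5.11% and 25.3% of all expressed genes in that range. Of the 28 members between, 5 were called higher and 2 lower, with 16.2% and 10.9% of all expressed genes. These 2 lower members were POLH (46.4% GC) and XRCC5 (43.3%), both under the median of expressed genes. The GC correction did not make their falls smaller (log2 fold change -1.30 and -1.02 after it). Across the 53 members, which share the same libraries and a single parental library, the log2 fold change fell with GC content (Spearman rho -0.829, Pearson r -0.692), and across 11377 expressed genes rho was -0.447. After the correction rho was -0.401 over the members and -0.019 over all expressed genes. Of the 12 members under 40% GC, 5 were then called higher and 0 lower, beside 13.7% and 13.9% of all expressed genes in that range. Of the 13 at 50% or more, 0 were called higher and 1 lower, beside 11.2% and 10.9%. These correlations run across genes, which are not independent replicates.

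**Figure D2:**
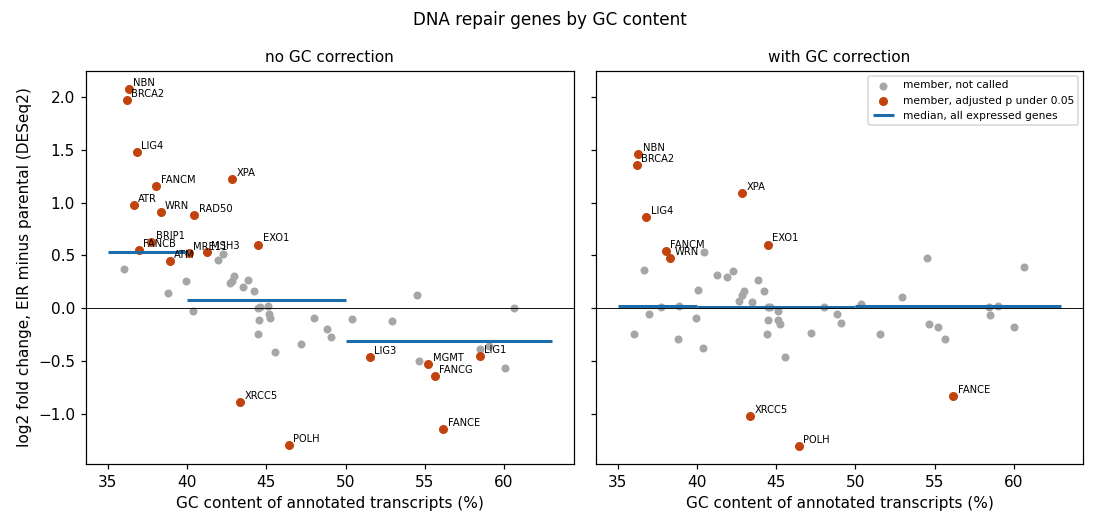
Log2 fold change of EIR over parental cells against transcript GC content in percent for the 53 expressed members, without and with the GC correction. Coloured and named points were called, grey points were not, and lines are medians of all expressed genes in 3 GC ranges; the 12 members under 40% GC had a median of 0.77 before and 0.19 after the correction, and the 13 at 50% or more had medians of -0.45 and -0.06.

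The promoters of the same 4 genes were searched for letters bound by factors of cell cycle genes. Shown are the 250 bases before the annotated start, 5′ to 3′ in the sense of the gene, from RefSeq on GRCh38.p14, with CG dinucleotides in capitals. They lie at chr13:32315258-32315507 (BRCA2, plus strand), chr13:108218350-108218599 (LIG4, minus), chr6:43575935-43576184 (POLH, plus) and chr6:35452088-35452337 (FANCE, plus).
BRCA2 promoter: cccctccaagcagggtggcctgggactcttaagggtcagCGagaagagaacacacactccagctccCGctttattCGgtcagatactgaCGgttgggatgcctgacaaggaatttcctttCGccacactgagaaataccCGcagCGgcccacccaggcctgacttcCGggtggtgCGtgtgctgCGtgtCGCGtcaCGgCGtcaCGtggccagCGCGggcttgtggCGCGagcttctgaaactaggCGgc
LIG4 promoter: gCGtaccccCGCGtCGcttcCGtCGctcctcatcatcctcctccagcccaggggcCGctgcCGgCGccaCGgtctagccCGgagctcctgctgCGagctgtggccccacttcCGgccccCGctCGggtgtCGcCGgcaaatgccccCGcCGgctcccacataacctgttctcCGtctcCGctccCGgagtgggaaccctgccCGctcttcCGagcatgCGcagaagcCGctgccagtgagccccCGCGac
POLH promoter: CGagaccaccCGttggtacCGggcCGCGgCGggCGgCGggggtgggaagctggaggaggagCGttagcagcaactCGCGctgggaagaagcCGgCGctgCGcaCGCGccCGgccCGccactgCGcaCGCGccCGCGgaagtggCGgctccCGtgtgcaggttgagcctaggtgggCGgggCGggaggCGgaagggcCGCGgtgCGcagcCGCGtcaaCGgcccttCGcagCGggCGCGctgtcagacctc
FANCE promoter: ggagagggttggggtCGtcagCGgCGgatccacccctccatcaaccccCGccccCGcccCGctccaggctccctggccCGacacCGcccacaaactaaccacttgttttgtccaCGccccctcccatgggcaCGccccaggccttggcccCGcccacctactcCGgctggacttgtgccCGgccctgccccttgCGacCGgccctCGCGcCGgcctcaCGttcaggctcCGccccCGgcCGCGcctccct
CG dinucleotides numbered 20 in BRCA2, 28 in LIG4, 38 in POLH and 23 in FANCE, and GC content was 61.6%, 72.0%, 76.0% and 73.6%, so the risen and the fallen genes alike had GC-rich promoters. The E2F letters TTTCCCGC, TTTGGCGC, TTTGCCGC and TTTCGCGC, the NF-Y letters CCAAT and the CHR letters TTTGAA, on either strand, were in none of these 4 windows. The E2F letters occurred in 5 of 49 members with an entry (2.79% of 35116 promoters), CCAAT in 18 (32.0%) and TTTGAA in 5 (13.3%). Of called members with an entry, E2F letters, CCAAT and TTTGAA were found in 1, 4 and 2 of 12 that were higher and in 1, 0 and 0 of 6 that were lower.

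Among 11 homologous recombination genes, 2 were called higher in EIR cells and 0 lower. BRCA2, a central mediator of strand exchange (ENSG00000139618, chromosome 13, 32889223 to 32974405 on hg19), was at 854 normalized counts in parental cells, 2621 and 3793 in untreated and treated clone 3 and 3611 and 3340 in untreated and treated clone 4. The lowest EIR library was thus more than 3 times the parental one, and the log2 fold change was 1.97 (SE 0.267, DESeq2 adjusted p = 1.535e-11), or 1.35 after GC correction (adjusted p = 3.415e-07). BRIP1, the helicase partner of BRCA1, was at 1216 in parental cells and at 1851, 1740, 2033 and 1869 in the EIR libraries in the same order (log2 fold change 0.62, SE 0.176, DESeq2 adjusted p = 0.0032). Its call was lost in edgeR (adjusted p = 0.0568) and after GC correction (log2 fold change 0.02, DESeq2 adjusted p = 0.9714).

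BRCA1, the ubiquitin ligase subunit that acts in resection and recombination, was not called. Its normalized counts were 1953 in parental cells and 2437, 2394, 3084 and 2823 in EIR cells (log2 fold change 0.46, SE 0.227, DESeq2 adjusted p = 0.1258). BARD1, its obligate partner, lay on both sides of the parental value of 2220, at 1795 and 1790 in clone 3 and 2572 and 2380 in clone 4. The remaining members of the class, PALB2, RAD51B, RAD51C, RAD51D, XRCC2, XRCC3 and RAD54L, were not called and had log2 fold changes between -0.25 and 0.30. The exons of XRCC3 overlap those of KLC1, so its count is uncertain.

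Among end resection and helicase genes 5 of 6 were called, all 5 higher in EIR cells. MRE11, RAD50 and NBN form the MRN complex, which senses double-strand breaks and recruits ATM. NBN, its signalling subunit (ENSG00000104320, chromosome 8, 90936743 to 91015456), was at 1135 normalized counts in parental cells, 5093 and 5988 in untreated and treated clone 3 and 4622 and 3455 in untreated and treated clone 4. No member had a larger log2 fold change, at 2.08 (SE 0.328, DESeq2 adjusted p = 1.156e-08) and at 1.46 with the GC correction (adjusted p = 1.756e-05). About 4.26% of its exon bases overlap OSGIN2 on the opposite strand. RAD50, the ATPase that tethers the ends, was at 2217 in parental cells and 3425, 4698, 4498 and 3698 in EIR cells (log2 fold change 0.88, SE 0.254, DESeq2 adjusted p = 0.0040). MRE11, the nuclease, was at 887 and at 1288, 1339, 1269 and 1187 (log2 fold change 0.52, SE 0.172, DESeq2 adjusted p = 0.0144). The calls of RAD50 and MRE11 were lost in edgeR (adjusted p = 0.0602 and 0.0684) and after GC correction (DESeq2 adjusted p = 0.0537 and 0.5019).

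EXO1, the exonuclease of long-range resection and of mismatch repair, was at 2552 normalized counts in parental cells and 3944, 3874, 4027 and 3657 in EIR cells. The log2 fold change was 0.60 (SE 0.148, DESeq2 adjusted p = 0.0005) and again 0.60 after GC correction. With the libraries of each clone summed it was 0.61 and not called (DESeq2 adjusted p = 0.1262). WRN, the RecQ helicase mutated in Werner syndrome, was at 880 and at 1635, 1638, 1752 and 1572 (log2 fold change 0.91, SE 0.165, DESeq2 adjusted p = 1.146e-06; 0.48 after GC correction). BLM, the RecQ helicase mutated in Bloom syndrome, was not called (log2 fold change -0.03, SE 0.203), with 1309 in parental cells and 1181 to 1444 in EIR cells.

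**Figure D3:**
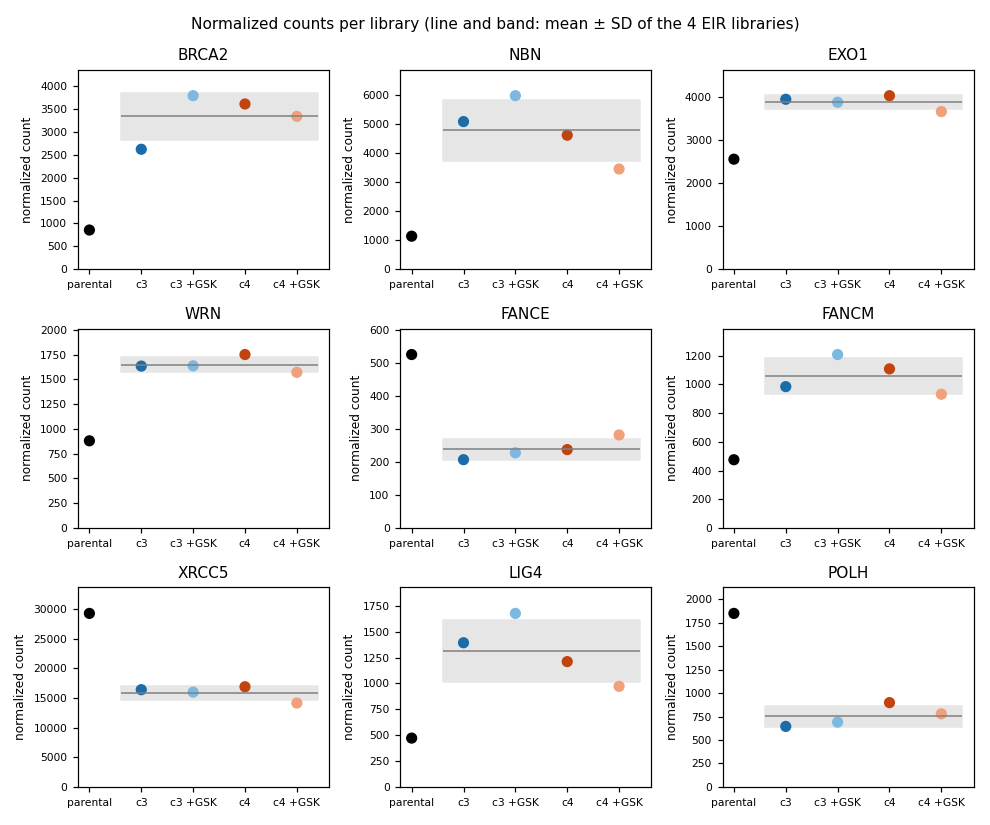
Normalized counts in each of the 5 libraries for the 9 members called by DESeq2, by edgeR and after GC correction, on linear axes from 0 (c3 and c4, the clones; line and band, mean ± SD of the 4 EIR libraries). For BRCA2, NBN, EXO1, WRN, FANCM and LIG4 the 4 EIR libraries lie above the parental one, and for FANCE, XRCC5 and POLH they lie below it.

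In the Fanconi anemia pathway some genes were called in each direction. FANCA, FANCB, FANCC, FANCE, FANCF, FANCG and FANCL belong to the nuclear core complex that FANCM anchors to DNA and that ubiquitinates FANCD2 and FANCI. Of 9 tested genes, 2 were called higher and 2 lower, and after GC correction 1 and 1. FANCM, the anchoring translocase, was at 475 normalized counts in parental cells and 985, 1209, 1109 and 932 in EIR cells, so that all EIR libraries were nearly 2-fold or more above it (mean ratio 2.23, SE of the log2 fold change 0.239, DESeq2 adjusted p = 2.597e-05). FANCB was at 270 and at 401, 376, 404 and 401 (log2 fold change 0.55, SE 0.214, DESeq2 adjusted p = 0.0413), but after GC correction the estimate was -0.06 (adjusted p = 0.9102), a change of sign.

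FANCE, which binds FANCD2 within the core complex, was lower in every EIR library, at 207, 228, 238 and 282 against 527 in parental cells (log2 fold change -1.14, SE 0.283, DESeq2 adjusted p = 0.0006; -0.83 after GC correction, adjusted p = 0.0389). With the libraries of each clone summed it was not called (-1.14, DESeq2 adjusted p = 0.0538). FANCG, a scaffold of the core complex, was at 1040 in parental cells and 668, 629, 706 and 670 in EIR cells (log2 fold change -0.64, SE 0.181, DESeq2 adjusted p = 0.0033), and this call was lost after GC correction (adjusted p = 0.2914). FANCA was at 1539 and at 986 to 1204 and was not called (DESeq2 adjusted p = 0.0741). The ubiquitinated pair showed small differences, with log2 fold changes of 0.02 for FANCD2 and 0.27 for FANCI (DESeq2 adjusted p = 0.9598 and 0.2955). FANCC and FANCL were not called, at 0.16 and 0.14.

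FANCF, the adaptor of the core complex, stood apart from all other members because it was hardly counted. Its counts were 1 in parental cells, 2 and 0 in untreated and treated clone 3 and 3 and 0 in untreated and treated clone 4. None was above 3 counts, the floor used here, in libraries of 25479238 or more counts, so no fold is given for it. Every other member had at least 139 counts in each library.

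Damage signalling genes were called in 1 direction, 2 of 5 being higher. ATR, the kinase activated by single-stranded DNA at stalled forks, was at 1919 normalized counts in parental cells and 3333, 3683, 4208 and 3847 in EIR cells (log2 fold change 0.97, SE 0.201, DESeq2 adjusted p = 2.297e-05). The call stood in edgeR as well (adjusted p = 0.0302) but not after GC correction, where the log2 fold change was 0.36 (DESeq2 adjusted p = 0.1683). ATM, the kinase activated at double-strand breaks, was at 2063 and at 2608, 2734, 2913 and 3000 (log2 fold change 0.45, SE 0.169, DESeq2 adjusted p = 0.0355), with no call in edgeR (adjusted p = 0.1052) or after GC correction (DESeq2 adjusted p = 0.9610).

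Their downstream kinases were not called. CHEK1, the target of ATR, had a log2 fold change of 0.20 and CHEK2, the target of ATM, one of -0.41 (DESeq2 adjusted p = 0.5602 and 0.1731). TP53BP1, which shields broken ends from resection, was at -0.09. CHEK2 and PMS2 have near-identical pseudogene copies, so the division of their reads is uncertain.

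In mismatch repair, MSH3, which recognises insertion and deletion loops, was the 1 of 3 genes called. It was at 1107 normalized counts in parental cells and 1493, 1688, 1558 and 1642 in EIR cells (log2 fold change 0.53, SE 0.171, DESeq2 adjusted p = 0.0117). The call was not made in edgeR (adjusted p = 0.0670) or after GC correction (DESeq2 adjusted p = 0.2500). MSH6, which recognises base mismatches, and PMS2, the endonuclease subunit, had log2 fold changes of -0.11 and -0.34 and were not called. MGMT, which removes alkyl groups from guanine directly, was lower in EIR cells, at 696, 621, 655 and 600 against 926 (log2 fold change -0.53, SE 0.196, DESeq2 adjusted p = 0.0324). No call was made in edgeR (adjusted p = 0.0813) or after GC correction (DESeq2 adjusted p = 0.5649).

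Of 6 nucleotide excision repair genes, XPA was the 1 called. XPA verifies the damaged strand and holds the incision complex in place. Parental cells had 347 normalized counts, clone 3 had 609 untreated and 657 treated, and clone 4 had 1163 untreated and 823 treated. The rise was present in both clones but was uneven (log2 fold change 1.23, SE 0.415, DESeq2 adjusted p = 0.0165; 1.09 after GC correction, adjusted p = 0.0366), and edgeR did not call it (adjusted p = 0.1125). ERCC2, a helicase of the TFIIH complex, was at 1574 in parental cells and 936 to 1174 in EIR cells with an adjusted p of 0.0532 in DESeq2. The other TFIIH helicase ERCC3, the ERCC1 and ERCC4 nuclease pair and the nuclease ERCC5 had log2 fold changes of -0.10, -0.38, 0.26 and 0.02, none called. ERCC5 shares exons with the readthrough gene BIVM-ERCC5, and its count is uncertain.

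Base excision and single-strand break repair genes had negative log2 fold changes throughout, from -0.46 to -0.09 (median -0.36), and 2 of 5 were called. With the GC correction 1 of them, XRCC1, was at 0.03. LIG1, the ligase of replication and long-patch repair, was at 3969 normalized counts in parental cells and 2953, 2757, 3160 and 2773 in EIR cells (log2 fold change -0.45, SE 0.168, DESeq2 adjusted p = 0.0339). LIG3, the ligase that works with XRCC1, was at 1940 and at 1442, 1449, 1449 and 1310 (log2 fold change -0.46, SE 0.164, DESeq2 adjusted p = 0.0252), and its exons overlap RFFL on the opposite strand. Neither was called in edgeR (adjusted p = 0.0924 and 0.0751) or after GC correction (DESeq2 adjusted p = 0.8737 and 0.2863), where the class median was -0.06. PARP1, the poly(ADP-ribose) polymerase that detects strand breaks, was at 8978 in parental cells and 7907, 7516, 8404 and 7605 in EIR cells, which was no call (log2 fold change -0.19, SE 0.150, DESeq2 adjusted p = 0.3764). PARP2, its paralog, and XRCC1, the scaffold of the class, were at -0.09 and -0.36 and were not called.

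Of 5 end joining genes 1 was called lower and 1 higher. XRCC5 (Ku80) and XRCC6 (Ku70) form the ring that binds broken ends and recruits the kinase PRKDC, and LIG4 with XRCC4 seals them. XRCC5 (chromosome 2, 216972187 to 217071026) was lower in every EIR library, at 16392, 15976, 16887 and 14133 normalized counts against 29265 in parental cells (log2 fold change -0.88, SE 0.174, DESeq2 adjusted p = 8.588e-06). After GC correction the difference was larger, at -1.02 (adjusted p = 7.004e-11). XRCC6 was at 28016 in parental cells and 20244 to 25121 in EIR cells and was not called (log2 fold change -0.28, SE 0.191, DESeq2 adjusted p = 0.3060). PRKDC was at 28449 and at 25864 to 33022, with a log2 fold change of 0.01.

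LIG4 (ENSG00000174405, chromosome 13, 108859787 to 108870716) was higher in every EIR library, at 1394 and 1678 in untreated and treated clone 3 and 1212 and 972 in untreated and treated clone 4 against 471 in parental cells. On the log2 scale it rose by 1.48 (SE 0.343, DESeq2 adjusted p = 0.0002), or by 0.86 with the GC correction (adjusted p = 0.0345). XRCC4, its partner, was at 371 in parental cells and 372 to 523 in EIR cells and was not called (log2 fold change 0.37, SE 0.295, DESeq2 adjusted p = 0.3849).

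Of the 2 specialised polymerases 1 was called. POLH, the translesion polymerase that copies past ultraviolet dimers and is deficient in the variant form of xeroderma pigmentosum (chromosome 6, 43543922 to 43588260), was at 1850 normalized counts in parental cells and 644, 690, 898 and 779 in EIR cells. This was the largest fall of the members, at -1.30 on the log2 scale (SE 0.260, DESeq2 adjusted p = 1.322e-05), and the GC correction left it at -1.30. POLQ, the polymerase of theta-mediated end joining, was at 1723 and at 2208 to 2755 (log2 fold change 0.51, SE 0.213, DESeq2 adjusted p = 0.0589).

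Ratios of normalized counts within known protein pairs were then taken in each library. The pairs were chosen after the values were seen and were not tested, and since the counts are not divided by length a ratio is read only between libraries. The XRCC5 to XRCC6 ratio was 1.04 in parental cells and 0.674, 0.699, 0.672 and 0.698 in the EIR libraries (mean 0.686 ± 0.0147, SD, n = 4). LIG4 to XRCC4 went from 1.27 to 2.73 ± 0.338 and NBN to MRE11 from 1.28 to 3.75 ± 0.653. BRCA2 to PALB2, the protein that bridges BRCA2 to BRCA1, was at 1.09 in parental cells and 3.48 ± 0.576 in EIR cells. In each of these pairs, and in all those that follow, the EIR libraries all lay on 1 side of the parental value. How often other gene pairs do so was not computed. Of single expressed genes, 31.9% had all 4 EIR libraries above the parental value and 40.6% had all 4 below it. For the pairs given so far the mean log2 difference after GC correction was -0.88, 1.09, 1.27 and 1.18 in the order given. RAD50 to MRE11 went from 2.5 to 3.21 ± 0.414 and BRCA1 to BARD1 from 0.88 to 1.27 ± 0.0899. FANCD2 to FANCI and LIG3 to XRCC1 differed less, from 0.871 to 0.735 ± 0.0744 and from 1.35 to 1.26 ± 0.0844. ERCC4 to ERCC1 had a mean log2 difference of 0.65 before and 0.13 after the correction.

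**Figure D4:**
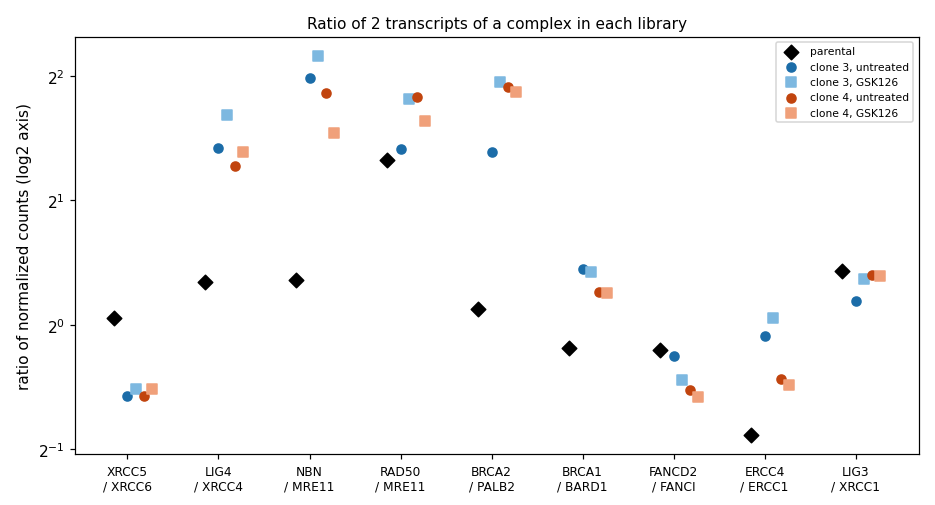
Ratio of normalized counts of protein partners in each of the 5 libraries, on a log2 axis, with 1 point per library. The XRCC5 to XRCC6 ratio falls from 1.04 to between 0.672 and 0.699, and those of LIG4 to XRCC4, NBN to MRE11 and BRCA2 to PALB2 rise to at least 2.42, 2.91 and 2.62.

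Levels were compared between genes per kilobase of the longest annotated transcript. XRCC6 stood highest, at 10340 normalized counts per kilobase in parental cells and 7473 to 9273 in EIR cells. XRCC5 came next, at 7781 and 3758 to 4490, followed by PRKDC at 2114 and 1922 to 2454 and PARP1 at 1446 and 1210 to 1353. The EIR ranges of these 4 genes did not overlap, and their order was the same in parental cells. This order depends on the length used: with the median transcript, XRCC5 and PRKDC came before XRCC6. RAD51D was the lowest of the expressed members by the longest transcript, at 25.9 in parental cells and 22.9 to 32.2 in EIR cells, and FANCE by the median transcript in EIR cells.

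Expressed genes within 1 Mb of a called member were compared with it, and size was judged regardless of direction. The values come from the DESeq2 fit without GC correction, in which 30.5% of expressed genes were called. The comparison was not repeated with the correction. The 4 neighbours of BRCA2 had log2 fold changes from 0.53 to 1.12, 3 of them called higher, all below that of BRCA2. NBN had 5 neighbours with a median of 0.59, 3 called higher and 1 lower, none as large as NBN. The neighbours of LIG4 (2, median -0.08), FANCM (6, median -0.19) and POLH (36, median -0.18) had medians below 0. Of the POLH neighbours 2 were called higher and 11 lower, and 1 differed as much as POLH did. Among the 15 neighbours of FANCE 0 were called higher and 6 lower, with a median of -0.39, and 3 differed by as much. Neighbours of some other called members differed as much as the member. EXO1 had a neighbour median of 0.74, above its own value. In size, ATM was matched or passed by 6 of 9 neighbours, LIG1 by 17 of 31 and XRCC5 by 5 of 11. The median of the XRCC5 neighbours was 0.24, with 2 called higher and 1 lower, whereas XRCC5 fell.

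Of 80 further repair genes outside the list, 21 were called (26.2%), 11 higher and 10 lower, beside 25.5% of all genes, and their median log2 fold change was 0.0049. Among the 8 with the largest difference of those called and expressed, RAD18, the ubiquitin ligase that marks PCNA for translesion synthesis, had 976 normalized counts in the parental library and from 2006 to 2275 in the EIR libraries (SE of the log2 fold change 0.167, DESeq2 adjusted p = 9.871e-10). GEN1, a Holliday junction resolvase, was at 698 and at 1568 to 1918 (log2 fold change 1.31, SE 0.204, DESeq2 adjusted p = 6.113e-09). RFC3, a subunit of the clamp loader, was at 1697 and at 2970 to 3166 (log2 fold change 0.85, SE 0.143, DESeq2 adjusted p = 1.235e-07). POLK, a translesion polymerase of the same family as POLH, was higher at 1.02 and TDG, a thymine glycosylase, at 0.90 on the log2 scale (DESeq2 adjusted p = 0.0002 and 0.0036). The lower ones were RMI2, a subunit of the BLM complex, at -1.26, and the gap-filling end joining polymerases POLL at -0.96 and POLM at -0.89 (DESeq2 adjusted p = 1.596e-05, 0.0003 and 0.0268). After GC correction the calls of POLL and POLM were lost (adjusted p = 0.0593 and 0.3999). Of the 80 genes, edgeR called 8, and 14 were called after GC correction.

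Members were rarely called between the clones. No member was called in clone 4 against clone 3 by DESeq2 with treatment as covariate, where 9.81% of 17708 genes were. Its unadjusted p was under 0.05 for 4 of 53 members, beside 3270 genes of the whole table. edgeR called 2 (BARD1 and XPA, both higher in clone 4, adjusted p = 0.0366 and 0.0394), where 14.9% of genes were called. The unadjusted p of edgeR was under 0.05 for 9 of 53 members, beside 5020 of 16616 genes tested. XPA had the smallest DESeq2 adjusted p, 0.0814, with a log2 difference of 0.62 (SE 0.239), and BARD1 differed by 0.46 (SE 0.181, adjusted p = 0.0954 in DESeq2). With GC correction XPA and BARD1 were called higher and NBN lower, where 11.8% of genes were called. NBN and LIG4 had DESeq2 differences of the other sign, at -0.47 (SE 0.195) and -0.50 (SE 0.217), with adjusted p of 0.1196 and 0.1505. Both libraries of clone 4 lay above both of clone 3 for 21 of 53 members and below them for 10, beside 27.8% and 35.3% of all expressed genes.

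No pair of EIR libraries differed by at least 2-fold in any of the 53 members, whereas 6 to 9 members did so when parental cells were set against 1 EIR library (11.3% to 17.0% of members, beside 16.3% to 19.3% of all expressed genes). Between the clones 7.35% to 8.16% of all expressed genes differed by that much. The SD of the log2 ratio over the members was 0.227 to 0.270 between clones and 0.159 and 0.172 between the libraries of clone 3 and of clone 4, against 0.644 to 0.742 between parental and EIR cells. Over all expressed genes, which were not matched to the members in level, it was 0.812 to 0.871 between clones and 1.05 to 1.14 from the parental library.

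Outside the list, 3 of the 80 further repair genes were called between the clones. DDB2, the damage sensor of global genome repair, was at 945 normalized counts in parental cells, 686 and 700 in untreated and treated clone 3 and 2273 and 2302 in untreated and treated clone 4 (log2 difference 1.72, SE 0.193, DESeq2 adjusted p = 5.978e-17). The clones thus lay on opposite sides of parental cells. REV3L, the catalytic subunit of polymerase zeta, was at 1954 in parental cells, 2668 and 2984 in clone 3 and 4083 and 4226 in clone 4 (0.55, SE 0.171, DESeq2 adjusted p = 0.0165). PARP3, a poly(ADP-ribose) polymerase paralog, was at 799, at 1044 and 1109 in clone 3 and at 659 and 658 in clone 4 (-0.71, SE 0.216, DESeq2 adjusted p = 0.0129).

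GSK126 treatment of the EIR clones was accompanied by no call among the 54 members in DESeq2 or edgeR, where 0.00335% and 0.0% of all genes were called. In either tool 0 members had an unadjusted p under 0.05, beside 117 genes of the whole table in DESeq2 and 86 in edgeR. These fits had no term for clone, so differences between the clones added to their spread and few genes could pass. With clone as a replicate block the number of members called was again 0 in both tools, where DESeq2 called 0.0134% of all genes. Within clone 3 the log2 ratio of treated to untreated cells ran from -0.34 (RAD54L) to 0.53 (BRCA2) over the 53 expressed members, and within clone 4 from -0.50 (XPA) to 0.40 (RAD54L). The balance of signs depended on the scaling, with a negative log2 fold change for 40 of 54 members in the DESeq2 fit and for 25 with total count scaling, where the median of all genes was 0.03 and 0.11. In normalized counts, the log2 ratio of treated to untreated cells had opposite signs in the clones for 27 of the 53 expressed members. It was negative in both clones for 22 and positive in both for 4. RAD50, NBN and LIG4 were among the 27. Their normalized counts were higher in treated than in untreated clone 3 and lower in treated than in untreated clone 4.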

How the data were processed

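RNA-seq libraries of parental and EIR TOV21G cells were prepared from total RNA with a stranded kit. The authors aligned the paired-end reads with bowtie2 to hg19 and estimated counts per Ensembl gene with RSEM; whether counting used the strand is not stated. The deposited values are these expected counts, whole numbers and not normalized, and they were used as they stood. Groups and clone numbers came from the labels, and 0 columns lacked a sample. Reads that match several genes were shared out by RSEM, so genes with overlapping exons or close copies are uncertain. The exons of 18 members overlapped those of another gene that had at least 10% of their count.

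The members, lists and tests were chosen with earlier results of these data known. Symbols, coordinates, transcript length and GC content (median over the transcripts of a gene) came from GENCODE release 44 on GRCh37, which matched 29203 of 30476 identifiers (95.8%). CD3E and PECAM1 were not analysed here, and a few results for single genes are left out.

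Differential expression was tested over the whole table by the two-sided Wald test of DESeq2 1.42.0 (R 4.3.3), as in the study's methods, with its own size factors; p was adjusted by the Benjamini-Hochberg method and 0.05 was the threshold. EIR libraries formed a single group of 4 against 1 parental library; clone 4 against clone 3 had treatment as covariate; treated against untreated EIR had none. All members called were named, with BRCA1, BRCA2, ATM, ATR and PARP1 in any case, and the 8 further repair genes with the largest called difference. Ratios per library used a pseudocount of 0.5. The GC correction took normalization factors per gene and library from the median log2 ratio in 20 GC bins.

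Alternatives were edgeR 4.0.16 (quasi-likelihood test, TMM), TMM and total count scaling, a filter of at least 10 counts in at least 2 libraries, GC correction, omission of each EIR library in turn, a log2 fold change of at least 1 in size, untreated or treated EIR libraries only, clones summed, the replicate block and no treatment covariate. The edgeR block, the longest transcript and the fits of clone 4 against clone 3 that leave out a library and the treatment covariate were added after seeing the data. The clone number paired treated and untreated libraries, as given by the labels. Their deviations from the treatment group means correlated at 0.864 over 11465 genes. With 2 clones per group the deviations mirror each other, so both clones give the same value by construction and it counts once. The floor of 3 counts covers counting error only.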

Additional observations from a re-analysis of the deposited data

Results flagged for a closer look

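In 5 of 53 members tested, 1 of the 4 EIR libraries lay far from the other 3, which chance gives in about 1 in 20 groups. Treated clone 4 was the low library for CHEK1 (2711 normalized counts, the others 3385 to 3461), CHEK2 (829.4, the others 1024 to 1048), LIG3 (1310, the others 1441 to 1449) and XRCC4 (372.4, the others 500.5 to 522.8). This library had the lowest total count, 25479238, and the part of depth in these values was not tested. For FANCB it was treated clone 3, at 375.5 with the others at 400.9 to 403.9. Of these genes LIG3 and FANCB were called against parental cells, and without treated clone 4 the call of LIG3 was kept while that of FANCB was lost.

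The clones differed in 3 of the 80 further repair genes by the DESeq2 test of clone 4 against clone 3. The log2 difference was 1.717 for DDB2, 0.5514 for REV3L and -0.7148 for PARP3 (DESeq2 adjusted p = 5.978e-17, 0.0165 and 0.0129).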

How the results depend on the processing

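The comparison with parental cells rested on 1 parental library and 2 clones, which limits every p given. Instead of 21 members called in EIR against parental cells, 11 were called by edgeR, 10 after GC correction, 8 with untreated EIR libraries only, 4 with treated ones only, 10 with the libraries of each clone summed and 7 with a minimum absolute log2 fold change of 1; all of these were among the 21. Of all genes tested, 25.5% were called in the main fit, 11.1% by edgeR, 19.4% after GC correction and 10.3% with untreated EIR libraries only. The share of all genes is not given here for treated libraries only, for clones summed or for the minimum fold. In those settings a loss of calls in the members cannot be told apart from a general one. Leaving out 1 EIR library gave 13 to 17 members (24.5% to 32.1%), beside 17.9% to 24.7% of all genes. There were 13 without untreated clone 3 and 13 without treated clone 3. The calls of FANCB, ATM, MGMT and LIG1 were lost in all 4 of these fits. Those of MRE11, MSH3 and LIG3 were kept only without treated clone 4, and that of FANCG was lost without either library of clone 3. TMM, total count scaling and the filter gave 22, 20 and 23, beside 25.6%, 23.9% and 27.4% of all genes. BRCA2, NBN, LIG4 and POLH were called in all 12 alternatives for single genes, WRN, FANCM and XRCC5 in all but that with treated EIR libraries only (DESeq2 adjusted p = 0.1628, 0.0776 and 0.0559), and BRCA1 and PARP1 in 0. EXO1 and FANCE lost their calls with untreated EIR libraries only (DESeq2 adjusted p = 0.1069 and 0.0742), with treated ones only (0.4126 and 0.2201) and with clones summed (0.1262 and 0.0538). Over the named members 185 values kept direction and side of the threshold, 90 were no longer past it and 1 changed sign, FANCB at -0.0559 after GC correction. The cause of the lost calls was not tested; fits with fewer libraries have fewer degrees of freedom.

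For clone 4 against clone 3 the count of 0 became 2 in edgeR, 1 with total count scaling, 3 after GC correction and 4 without the treatment covariate. Of all genes, 14.9%, 9.87% and 11.8% were called in the first 3 of these fits. It is not given here for the fit without the treatment covariate. Leaving out a library left no degrees of freedom for that covariate, so it was dropped, and 0 to 3 members were called: 2 without untreated clone 4 (NBN and LIG4, lower) and 3 without treated clone 4 (XPA, BARD1 and MSH6, higher). In each fit without a library the share of members called was below that of all genes tested. For treated against untreated EIR cells the replicate block and all other alternatives gave 0 members called.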
